A study of Mus musculus with 6 samples.

Results

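The collagen family was examined in messenger RNA of mouse macrophages from the peritoneum, phagocytes that live in the abdominal cavity, after culture. The family was taken as every protein-coding gene whose symbol is Col, a number, a, and a number. This gave 44 genes of 54532 gene identifiers in the count table, 21995 of them protein-coding. The study compared 3 libraries labelled as Rfx1 overexpression (OE 1, OE 2 and OE 3) with 3 libraries labelled as negative control (NC 1, NC 2 and NC 3). Both groups were cells labelled PMAs, given as macrophages under a cell line tag and as mouse peritoneal macrophages in the series title, and kept in DMEM with fetal bovine serum and antibiotics. The labels name no strain, age, vector or duration for either group. Nothing in the labels ties a library to its own animal or culture dish, and p-values here therefore reflect no more than the spread among these 6 libraries.

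Collagens are extracellular matrix proteins whose chains wind around each other into a rope-like helix built on a repeat in which glycine recurs at regular places. Fibril-forming collagens such as types I, III and V give connective tissue its tensile strength, type IV forms the network of basement membranes, and type VI forms beaded filaments near cell surfaces. They are made mainly by fibroblasts, mesothelial cells and other structural cells, and macrophages are better known for taking up and degrading collagen, although macrophages have been reported to make some collagens, types VI and VIII among them. Rfx1 belongs to the RFX transcription factors, which bind a palindromic element called the X-box, and in human cells proteins of this family have been reported to bind at the start of COL1A2, a type I collagen gene.

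Several facts of the libraries bear on every result that follows. Libraries held 16461277 to 18795575 counts. Rfx1 had 40.8, 36.4 and 23.2 CPM (counts scaled to a library of equal size) in the libraries labelled OE 1, 2 and 3, against 57.6, 11.0 and 14.8 CPM in those labelled NC 1, 2 and 3. The highest Rfx1 level was therefore in the library labelled NC 1, against its label, and the difference did not pass on all 6 libraries (log2 change 0.27, edgeR adjusted p = 0.80). Without NC 1 it passed as higher in OE libraries (1.37, adjusted p = 0.024). Every direction below therefore rests on the labels, and OE and NC name the label of a library only. OE 3 lay between the other OE libraries and the controls on the first principal component of log2 CPM, at 23.2 against 89.4 and 74.0, with NC 1, 2 and 3 at -42.3, -66.2 and -78.2. The macrophage lysozyme gene Lyz2, chosen after its values were seen, had 44.7 and 40.8 CPM in OE 1 and OE 2 but 29281 CPM in OE 3, against 15672, 38702 and 28352 CPM in NC 1, 2 and 3. The general macrophage genes Cd68 (2341 ± 404 and 2267 ± 374 CPM in OE and NC libraries; SD, n = 3 each) and Csf1r (540.3 ± 101 and 432 ± 252 CPM) were abundant in both groups. Of 14 macrophage markers, all tested, 3 were higher in OE libraries and 11 did not pass. The higher markers were Cd14, Adgre1 and Itgam, with log2 changes of 3.88, 1.37 and 0.97, where 6.90% of all tested genes were higher. The number of higher markers was 1 without OE 2, NC 2 or NC 3, where 3.32%, 3.26% and 3.79% of all genes were higher. It was also 1 when libraries were scaled by total counts alone, where fewer of all genes were called higher as well.

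In the OE libraries type VI collagen mRNA was lower by 15.6-fold to 37.3-fold, and the type IV chains Col4a5 and Col4a6, the fibril-forming gene Col24a1 and the network-forming gene Col8a2 were lower as well. Col5a3, a minor fibril-forming chain of type V, was 19.1-fold higher. The abundant type I and type III genes had lower means in OE libraries, but OE 3 lay in the range of the controls and the differences did not pass in edgeR. For Col1a1 and Col1a2 this depended on the tool, since DESeq2 and limma-voom called both lower on the same 6 libraries. These differences are given by gene below, as CPM per library and as log2 change of OE over NC with its standard error. Tests used edgeR's quasi-likelihood method, with Benjamini-Hochberg adjustment at 0.05 over the 13454 genes with enough counts to be tested.

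Of the 44 collagen genes, 24 had enough counts to be tested. Of these, 1 was higher in OE libraries, 7 were lower and 16 did not pass. These were 4.17% higher and 29.2% lower of the tested collagen genes, against 6.90% higher and 5.97% lower of all tested genes. Some of these genes entered the test through a single group. Among the lower genes, Col8a2, Col4a6, Col6a3 and Col24a1 had 0, 13, 26 and 30 counts over all OE libraries. They could only come out lower or not pass. The higher gene, Col5a3, had 25 counts over all NC libraries and could only come out higher or not pass. The median log2 change was -1.21 over the tested collagen genes and -0.01 over all tested genes (the collagen median is the same with Col8a2, at 0 in OE libraries, set to its bound), and 21 of the 24 had a negative log2 change, against 50.4% of all tested genes. In 8 of the 24 all OE libraries lay below all NC libraries and in 1 above, as they did in 17.1% and 16.3% of all tested genes. On the same 6 libraries DESeq2 called 10 collagen genes lower and 1 higher, beside 8.97% and 10.1% of all genes, and limma-voom 14 lower and 1 higher, beside 19.8% and 18.2%. The number of lower genes moved with single libraries, as did the calls over all genes: it was 4 of 25 tested without OE 2, where 1.80% of all genes were called lower, and 13 of 26 without OE 3, where 12.8% were. The share of all genes called lower was 3.45% without OE 1, 5.61% without NC 1, 2.01% without NC 2 and 2.78% without NC 3, and counts for other gene lists given below without a library are to be read against these shares. The share called higher was 5.20% without OE 1, 3.32% without OE 2, 11.8% without OE 3, 6.13% without NC 1, 3.26% without NC 2 and 3.79% without NC 3. OE 3 was the highest OE library in 21 of the 24 genes and NC 1 the lowest NC library in 17. In bulk RNA, fewer cells of a type and less RNA per cell cannot be told apart.

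**Figure D1:**
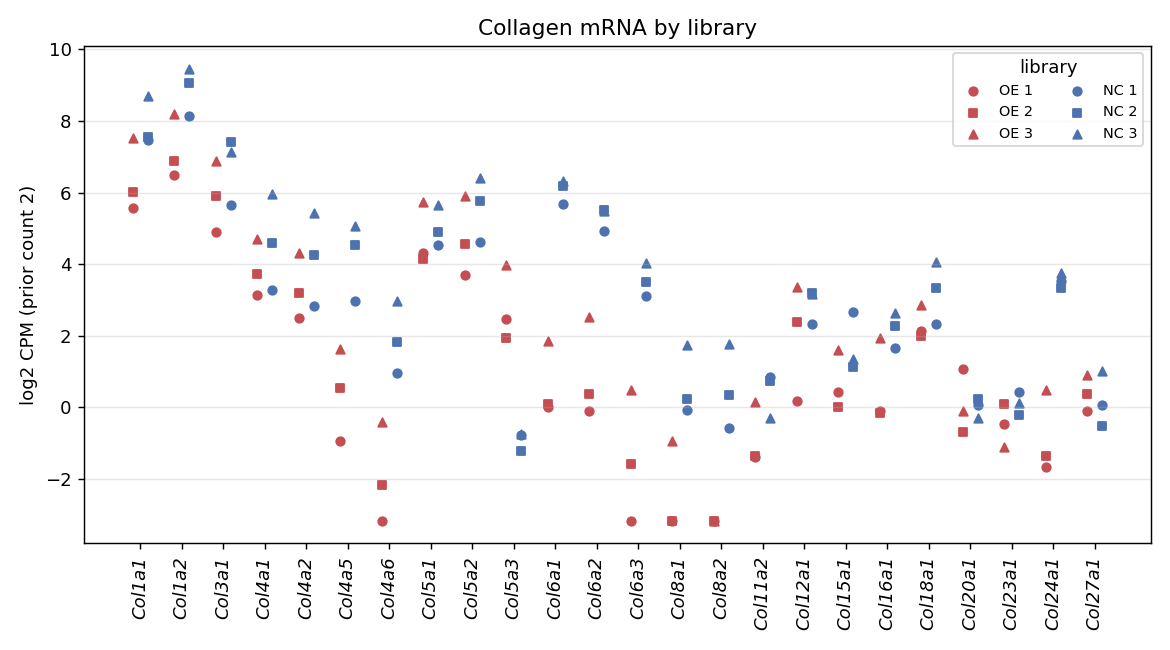
Level of each tested collagen gene in each library, as log2 CPM with a prior count of 2 (vertical axis); red points are OE libraries and blue points NC libraries, and the shape gives the replicate number. The red and blue points are apart for Col6a1, Col6a2, Col6a3, Col24a1, Col4a5, Col4a6, Col8a1, Col8a2 and Col5a3 and interleave or meet for Col1a1, Col3a1 and Col5a1.

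The promoters of 6 of the genes that changed are shown with that of Col1a2, so that the sequences upstream of genes that moved together can be compared. Each run is 200 bases, 180 before the start site and 20 from it onward, 5′ to 3′ on the gene's strand, from RefSeq on GRCm38.p6. Capitals mark the letters GGGCGG (the GC box bound by Sp factors), CCAAT (bound by NF-Y) and GTTGCC (an arm of the X-box, with GTTACC as a variant), or the same read on the other strand.
Col6a1: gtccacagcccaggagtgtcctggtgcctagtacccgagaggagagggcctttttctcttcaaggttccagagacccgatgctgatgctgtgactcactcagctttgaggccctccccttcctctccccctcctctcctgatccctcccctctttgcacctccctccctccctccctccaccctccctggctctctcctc
Col6a2: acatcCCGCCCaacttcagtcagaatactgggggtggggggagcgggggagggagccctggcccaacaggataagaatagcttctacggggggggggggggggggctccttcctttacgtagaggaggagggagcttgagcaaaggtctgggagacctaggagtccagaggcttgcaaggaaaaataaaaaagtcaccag
Col6a3: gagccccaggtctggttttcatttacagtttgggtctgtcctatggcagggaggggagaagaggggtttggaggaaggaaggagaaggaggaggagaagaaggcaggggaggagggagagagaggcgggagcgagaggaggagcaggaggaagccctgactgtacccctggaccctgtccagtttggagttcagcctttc
Col24a1: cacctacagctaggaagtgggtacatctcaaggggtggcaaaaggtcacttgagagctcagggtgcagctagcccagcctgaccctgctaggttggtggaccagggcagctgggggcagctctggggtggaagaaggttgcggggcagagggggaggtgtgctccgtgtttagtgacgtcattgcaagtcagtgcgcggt
Col4a5: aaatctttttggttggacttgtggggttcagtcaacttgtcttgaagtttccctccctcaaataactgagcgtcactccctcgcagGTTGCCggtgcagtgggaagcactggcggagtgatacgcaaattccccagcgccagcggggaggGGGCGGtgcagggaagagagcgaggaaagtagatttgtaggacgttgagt
Col5a3: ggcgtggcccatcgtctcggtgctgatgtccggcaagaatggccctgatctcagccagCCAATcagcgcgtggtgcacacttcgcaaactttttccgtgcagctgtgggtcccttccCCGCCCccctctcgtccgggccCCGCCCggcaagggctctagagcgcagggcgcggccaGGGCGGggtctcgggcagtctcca
Col1a2: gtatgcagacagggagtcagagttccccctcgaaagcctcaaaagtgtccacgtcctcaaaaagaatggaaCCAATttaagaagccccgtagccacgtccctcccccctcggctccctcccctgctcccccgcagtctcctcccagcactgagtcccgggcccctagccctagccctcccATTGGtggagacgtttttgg

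These runs lie at chr10:76726025-76726224, - strand for Col6a1, chr10:76623611-76623810, - strand for Col6a2, chr1:90843952-90844151, - strand for Col6a3, chr3:145292292-145292491, + strand for Col24a1, chrX:141475239-141475438, + strand for Col4a5, chr9:20815048-20815247, - strand for Col5a3 and chr6:4505438-4505637, + strand for Col1a2. The RefSeq starts of Col6a1, Col4a5 and Col1a2 lay 124, 34 and 804 bases from the outermost start in GENCODE M21, and those of the others coincided with it. The printed runs of Col6a1, Col6a3 and Col24a1 held none of the motifs, and that of Col6a2 held a GC box near its upstream end. Col5a3 had 3 GC boxes and a CCAAT box, and Col1a2 had 2 CCAAT boxes, the second of them at the start site. Col4a5 had GTTGCC and a GC box.

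Windows of 300 bases, from 250 before to 50 after the start, were found for 35 of the 44 genes and searched on both strands. GTTGCC occurred in 3 of the 35 (Col4a5, Col18a1 and Col27a1) and in 12.5% of 32851 windows of the whole table, and GTTACC in 1 (Col8a1) and in 7.21%. The GC box occurred in 22 of the 35 and in 35.7% of all windows, CCAAT in 12 and in 37.4%, and the TATA box letters TATAAA in 5 and in 13.6%. No match of a motif overlapped one of another in the collagen windows. A match describes these letters only and does not show that a factor binds there.

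Levels between genes were compared per length, as TPM (length-scaled counts that sum to the same total in each library) over the summed exons of each gene. Col1a1 had 36.1 ± 31.6 TPM in OE libraries and 99.3 ± 41.5 TPM in NC libraries (SD, n = 3 each). Col1a2 had 31.7 ± 24.9 and 101 ± 31.6 TPM, and Col3a1 16.9 ± 12.9 and 30.0 ± 13.1 TPM. In OE libraries these had the highest means of the family, followed by Col5a1 at 8.31 ± 6.56, Col5a2 at 8.05 ± 7.13 and Col4a1 at 5.03 ± 3.49 TPM, which overlapped each other. In NC libraries the mean of Col6a1 came after those of Col1a2 and Col1a1 and above that of Col3a1, whose libraries at 15.7, 41.3 and 33.1 TPM overlapped those of Col6a1 at 35.8, 39.7 and 42.2 TPM. The order of Col1a1 and Col1a2 was not settled, since they lay closer than their spread and since the longest transcript as the length put Col1a2 at 123 and Col1a1 at 59.5 TPM. Col6a1 had 0.984 ± 0.943 TPM in OE libraries, below Col5a1, Col5a2 and Col4a1, and 39.2 ± 3.22 TPM in NC libraries, so its place in the order differed between the groups.

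All collagen genes together had 233, 329.9 and 815 CPM in OE 1, 2 and 3, against 710.3, 1218 and 1739 CPM in NC 1, 2 and 3. They made up 0.0196%, 0.0310% and 0.0839% of counts in OE 1, 2 and 3 and 0.0806%, 0.122% and 0.187% in NC 1, 2 and 3. OE 3 thus overlapped the controls in the summed level while OE 1 and OE 2 lay below all of them. Within that sum, per length, the type I genes took 54.8%, 53.4% and 56.8% in OE 1, 2 and 3 and 58.4%, 52.3% and 59.1% in NC 1, 2 and 3. The chains of type VI took 1.15%, 1.05% and 1.76% in OE 1, 2 and 3, against 18.9%, 16.8% and 12.3% in NC 1, 2 and 3. The make-up of OE 3 was therefore close to that of OE 1 and OE 2 in the type VI share, although its total lay near that of NC 1.

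**Figure D2:**
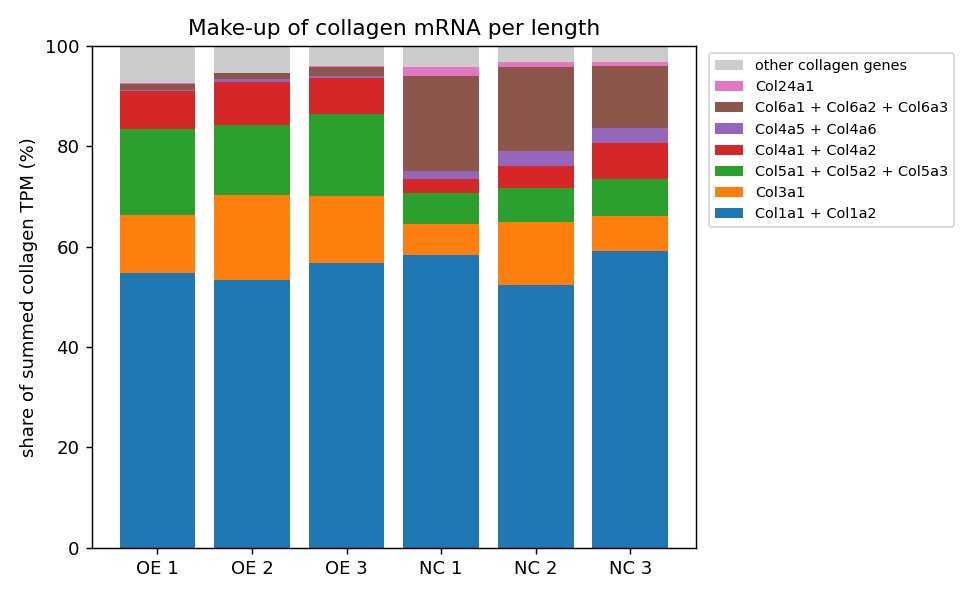
Share of the summed collagen TPM taken by groups of genes (vertical axis, %) in each library, OE libraries on the left and NC libraries on the right. The brown type VI segment is 1.05% to 1.76% in OE libraries and 12.3% to 18.9% in NC libraries, while the blue type I segment is 52.3% to 59.1% in all 6.

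Of the fibril-forming genes, 9 of 11 were tested, with 1 higher and 1 lower. Col1a1 (ENSMUSG00000001506), which encodes the main chain of type I collagen, had 47.3, 64.7 and 185 CPM in OE 1, 2 and 3, against 178, 188 and 413 CPM in NC 1, 2 and 3. Its log2 change was -1.39 ± 0.53 (SE, edgeR adjusted p = 0.13, and 0.0036 without OE 3), and the adjusted p was 0.025 in DESeq2 and 0.0064 in limma-voom. Col1a2 (ENSMUSG00000029661), the partner chain, had 89.0, 118 and 291 CPM in OE 1, 2 and 3, against 279.7, 532 and 704 CPM in NC 1, 2 and 3. The log2 change was -1.60 ± 0.48 (adjusted p = 0.060, 0.0019 without OE 3 and 0.026 without NC 1), with 0.0031 in DESeq2 and 0.0014 in limma-voom. In both genes OE 1 and OE 2 lay below every control and OE 3 just above the lowest control.

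Col3a1, whose product forms fibrils with type I in skin and vessels, had 29.9, 60.3 and 119 CPM in OE 1, 2 and 3 and 50.5, 169 and 139 CPM in NC 1, 2 and 3 (log2 change -0.78 ± 0.54, adjusted p = 0.39). Col5a1, a chain of the type V collagen that starts fibril assembly, had 19.6, 17.6 and 52.6 CPM in OE 1, 2 and 3 and 22.9, 30.0 and 49.7 CPM in NC 1, 2 and 3 (adjusted p = 0.82). Its partner Col5a2 had 12.9, 23.3 and 60.3 CPM in OE 1, 2 and 3 and 24.2, 54.6 and 84.8 CPM in NC 1, 2 and 3 (adjusted p = 0.45). The groups overlapped in all of these genes.

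Col5a3 (ENSMUSG00000004098, chr9:20770050-20815067 of mm10, - strand) was the only collagen gene that was higher in OE libraries in the test on all 6. It had 5.41, 3.74 and 15.8 CPM in OE 1, 2 and 3, against 0.472, 0.319 and 0.491 CPM in NC 1, 2 and 3. Every OE library lay above every control, and OE 3 was the highest. The log2 change was 4.26 ± 0.62 (adjusted p = 0.0028). Per length it had 2.89 ± 2.64 TPM in OE libraries and 0.164 ± 0.0499 TPM in NC libraries, and it took 3.03%, 1.52% and 2.55% of the collagen TPM in OE 1, 2 and 3 and at most 0.0816% in a control. Its promoter had the most GC boxes among the printed runs, which rests on which runs were printed. Col8a2, which was lower and whose run was not printed, had GC boxes at -93, -41, -19 and -15 bases from its start site. Col8a1, which did not pass, had them at -170, -73, -66 and -23 bases.

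Col24a1 (ENSMUSG00000028197, chr3:145292472-145552011, + strand), a fibril-forming gene known from developing bone, went the other way. It had 0.205, 0.283 and 1.30 CPM in OE 1, 2 and 3, against 11.5, 10.0 and 13.3 CPM in NC 1, 2 and 3, a log2 change of -4.25 ± 0.58 (adjusted p = 0.0022). The groups were well apart and the controls lay close together. The other tested fibril-forming genes were low: Col11a2, known from cartilage, had 0.520 ± 0.419 CPM in OE libraries and 1.32 ± 0.533 CPM in NC libraries (adjusted p = 0.24), and Col27a1 had 1.26 ± 0.479 and 1.15 ± 0.684 CPM (adjusted p = 0.90).

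All 3 tested genes of the beaded filament class, which encode the classical chains of type VI collagen, were lower in OE libraries. Col6a1 (ENSMUSG00000001119, chr10:76708792-76726168, - strand) had 0.889, 0.963 and 3.54 CPM in OE 1, 2 and 3, against 51.3, 72.6 and 79.3 CPM in NC 1, 2 and 3. The log2 change was -5.22 ± 0.52 (adjusted p = 4.9e-04). Col6a2 (ENSMUSG00000020241, chr10:76595762-76623630, - strand), its neighbour on the same chromosome and strand, had 0.821, 1.19 and 5.67 CPM in OE 1, 2 and 3, against 30.1, 45.9 and 44.8 CPM in NC 1, 2 and 3 (log2 change -3.96 ± 0.64, adjusted p = 0.0053). Even the highest OE library lay far below the lowest control in both.

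Col6a3 (ENSMUSG00000048126, chr1:90765923-90843971, - strand), on another chromosome, had 0, 0.227 and 1.30 CPM in OE 1, 2 and 3, against 8.60, 11.1 and 16.3 CPM in NC 1, 2 and 3 (log2 change -4.51 ± 0.84, adjusted p = 0.0094). Its OE values rest on 0, 4 and 22 counts. OE 3 was again the highest OE library and again below every control. The alternative chains had too few counts to be tested: Col6a5 had 0 counts in each OE library and 4, 18 and 5 counts in NC 1, 2 and 3, Col6a4 had 4 counts in all and Col6a6 had 1.

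Of the 6 basement membrane genes 4 were tested and 2 were lower. Col4a1 and Col4a2, the chains of the common type IV network, start head to head on chromosome 8, where their annotated starts overlap by 22 bases. Col4a1 had 8.69, 13.1 and 26 CPM in OE 1, 2 and 3 and 9.54, 23.9 and 61.6 CPM in NC 1, 2 and 3 (log2 change -0.99 ± 0.64, adjusted p = 0.36). Col4a2 had 5.54, 9.01 and 19.8 CPM in OE 1, 2 and 3 and 6.99, 19 and 43.0 CPM in NC 1, 2 and 3 (adjusted p = 0.36). Both groups spanned a wide range and overlapped, with OE 1 and NC 1 close together.

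Col4a5 and Col4a6 form a like head-to-head pair on the X chromosome, and their products occur in the basement membranes of some epithelia and of smooth muscle. Col4a5 (ENSMUSG00000031274, chrX:141475385-141689234, + strand) had 0.411, 1.36 and 3.01 CPM in OE 1, 2 and 3, against 7.70, 23.2 and 33.6 CPM in NC 1, 2 and 3 (log2 change -3.73 ± 0.71, adjusted p = 0.010, and 0.055 without OE 2). Col4a6 (ENSMUSG00000031273, chrX:141165403-141474076, - strand) had 0, 0.113 and 0.649 CPM in OE 1, 2 and 3, against 1.84, 3.46 and 7.80 CPM in NC 1, 2 and 3 (log2 change -4.03 ± 0.94, adjusted p = 0.021). Its call was lost without OE 2, NC 2 or NC 3 (adjusted p = 0.11, 0.070 and 0.082). In both genes the groups were apart, and NC 1 was the lowest control. Col4a3 and Col4a4, the pair known from the kidney filter, had 14 and 16 counts in all and were not tested.

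Of the short-chain network genes, Col8a2 (ENSMUSG00000056174) had 0 counts in each OE library and 0.567, 1.17 and 3.27 CPM in NC 1, 2 and 3. Set against 3 counts, the floor taken for all OE libraries together, it was at least 26.5-fold lower in OE libraries (adjusted p = 0.012, and 0.051 without OE 2). Col8a1, which with Col8a2 makes type VIII collagen of vessel walls and the cornea, had 0, 0 and 0.413 CPM in OE 1, 2 and 3, against 0.850, 1.06 and 3.22 CPM in NC 1, 2 and 3 (adjusted p = 0.063, and 0.0049 without OE 3). In both, the groups did not overlap, and the values rest on at most 60 counts in a library. Col10a1, of growth cartilage, had 5 counts in all.

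None of the 6 tested fibril-associated, transmembrane and multiplexin genes passed in edgeR on all 6 libraries, and 1, Col18a1, had an unadjusted p under 0.05. DESeq2 called 0 of them and limma-voom called Col15a1, Col16a1 and Col18a1 lower. Col12a1, whose product sits on the surface of type I fibrils, had 1.03, 5.16 and 10.1 CPM in OE 1, 2 and 3 and 4.91, 9.0 and 8.89 CPM in NC 1, 2 and 3 (adjusted p = 0.67). Col16a1, of the same class, had 1.78 ± 1.68 CPM in OE libraries and 4.59 ± 1.52 CPM in NC libraries (adjusted p = 0.18, and 0.0045 without OE 3). Col20a1 had 1.11 ± 0.776 and 0.906 ± 0.181 CPM (adjusted p = 0.81), and it shares 741 bases with an annotated gene on the same strand.

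Col18a1, a basement membrane collagen whose cleaved end is endostatin, had 5.10 ± 1.78 CPM in OE libraries and 10.5 ± 5.85 CPM in NC libraries (adjusted p = 0.16, and 0.045 without NC 1). It overlaps Slc19a1 on the opposite strand over 8825 bases, and the strand setting of the counting is not given in the sources used here. Col15a1, its relative, had 1.70 ± 1.10 and 3.60 ± 2.33 CPM (adjusted p = 0.27). The transmembrane gene Col23a1 had 0.644 ± 0.306 and 0.985 ± 0.241 CPM (adjusted p = 0.53). Adjusted p-values in these and the preceding paragraphs are from edgeR over all 13454 genes, and of the 24 collagen genes 12 had an unadjusted p under 0.05.

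Of the 20 collagen genes with too few counts to be tested, 16 had at least 1 count and 4 had 0 in all 6 libraries (Col9a1, Col19a1, Col22a1 and Col26a1). The most counts were 60, in Col9a3, with 17, 15 and 7 counts in OE 1, 2 and 3 and 8, 4 and 9 counts in NC 1, 2 and 3. Col14a1, a fibril-associated gene common in fibroblasts, had 51 counts, Col7a1, the anchoring fibril gene, had 32 and Col11a1 had 12. Col2a1, the cartilage collagen, had 9 counts, Col9a2 had 7 and the remaining untested genes not named above had at most 2.

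**Figure D3:**
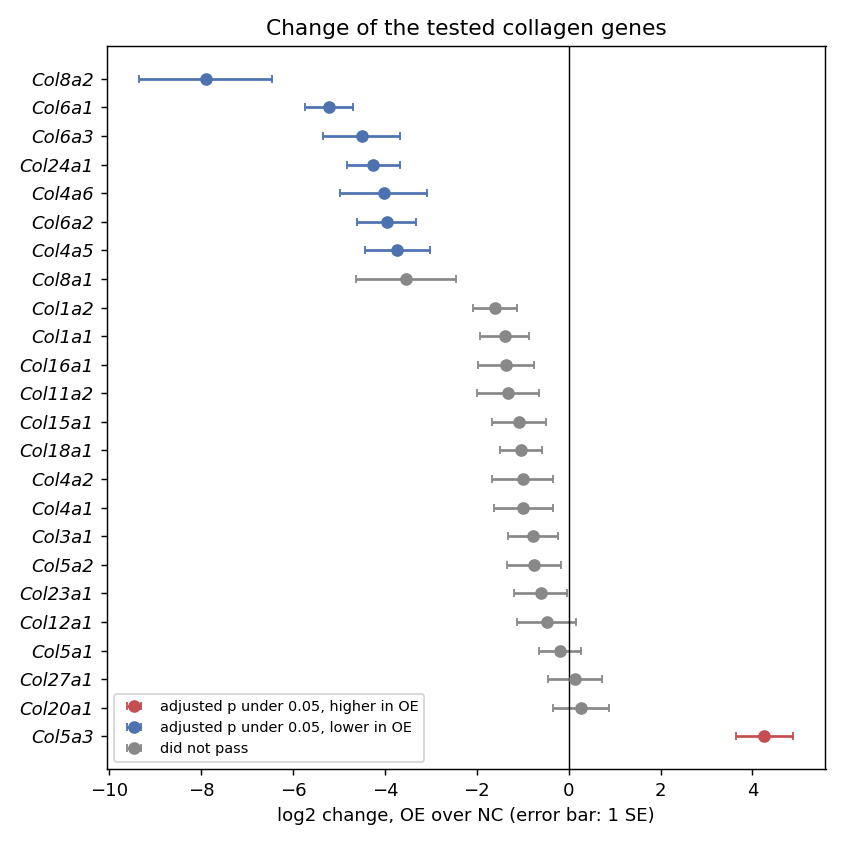
Log2 change of OE over NC libraries (horizontal axis) for the 24 tested collagen genes, with bars of 1 standard error; blue points were lower and the red point higher at an adjusted p of 0.05, and grey points did not pass. Col5a3 is at 4.26, Col6a1 at -5.22 and Col8a2, with 0 counts in OE libraries, at a fitted value of -7.90 that depends on the prior count.

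Ratios between collagen genes within a library do not depend on the library's total collagen and show how the make-up differed. Log2 CPM differences, with a prior count of 2, were compared for 11 pairs by a 2-sided exact permutation test. With 3 libraries in each group this exact test cannot go below p = 0.1, which adjustment over the 11 pairs turned into 0.22, so no pair could pass. Col6a1 minus Col1a1 was -5.57, -5.91 and -5.66 in OE 1, 2 and 3, against -1.79, -1.37 and -2.38 in NC 1, 2 and 3. Col24a1 minus Col1a1 was -7.23, -7.36 and -7.04 in OE 1, 2 and 3, against -3.94, -4.21 and -4.94 in NC 1, 2 and 3. Col24a1 had 3, 5 and 22 counts in OE 1, 2 and 3, so its ratios there depend in part on the prior count. In both sets of ratios OE 3 fell with OE 1 and OE 2, not with the controls.

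The same held for the type V and type IV genes. Col5a3 minus Col5a1 was -1.84, -2.20 and -1.73 in OE 1, 2 and 3, against -5.30, -6.13 and -6.37 in NC 1, 2 and 3. Col4a5 minus Col4a1 was -4.08, -3.17 and -3.07 in OE 1, 2 and 3, against -0.31, -0.04 and -0.87 in NC 1, 2 and 3. The pairs of this and the preceding paragraph set a gene that passed over one that did not, with those results known, so these ratios restate the values per gene and are a description with no test.

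For most chains that assemble together the ratios overlapped between the groups. Col4a2 minus Col4a1 was -0.52 ± 0.12 in OE libraries and -0.43 ± 0.10 in NC libraries (SD, n = 3 each; exact permutation p = 0.4), and Col4a6 minus Col4a5 was -2.32 ± 0.35 and -2.27 ± 0.38 (exact permutation p = 0.7). Col1a2 minus Col1a1 was 0.81 ± 0.14 in OE libraries and 0.98 ± 0.46 in NC libraries (exact permutation p = 0.9), and Col6a3 minus Col6a1 was -2.07 ± 0.96 and -2.51 ± 0.21 (exact permutation p = 0.4). Col6a2 minus Col6a1 was an exception, at 0.28 ± 0.38 in OE libraries and -0.75 ± 0.08 in NC libraries with no overlap (exact permutation p = 0.1). The ratios with Col4a6 and Col6a3 rest on few counts in OE libraries, 0, 2 and 11 for Col4a6 and 0, 4 and 22 for Col6a3, and their OE 1 values are set by the prior count. With 3 libraries a group these p-values do not show that the ratios were equal.

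**Figure D4:**
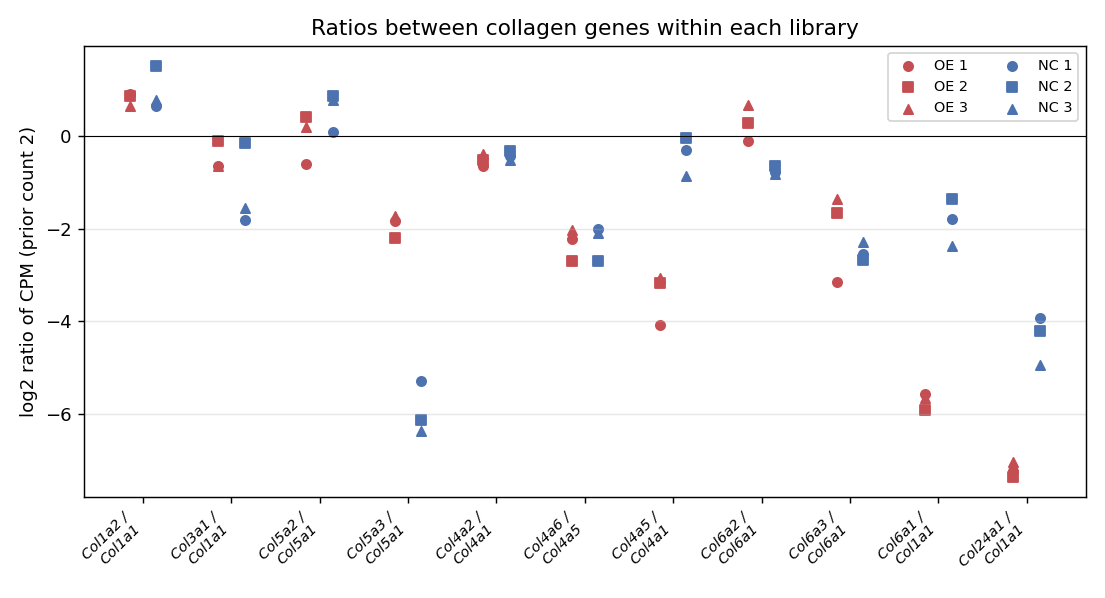
Log2 ratio of CPM between pairs of collagen genes within each library (vertical axis, prior count 2); red points are OE libraries, blue points NC libraries and the shape gives the replicate number. The groups are apart for Col5a3 over Col5a1, Col4a5 over Col4a1, Col6a2 over Col6a1, Col6a1 over Col1a1 and Col24a1 over Col1a1, and overlap for the other 6 pairs.

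Across the 6 libraries, some members of the same type varied together and others did not, and genes of different types could vary together as closely. This is a description over points that share the group difference and the library. The Pearson correlation of log2 CPM was 0.99 for Col6a1 with Col6a2, 0.98 for Col6a1 with Col6a3, 0.99 for Col4a5 with Col4a6 and 0.96 for Col1a1 with Col1a2. Within type V, Col5a3 was at 0.03 with Col5a1 and at -0.27 with Col5a2. Within type IV, Col4a1 was at 0.73 with Col4a5 and with Col4a6. Between types, Col1a1 with Col8a1 was at 0.97 and Col4a6 with Col6a3 at 0.98. Col24a1, a fibril-forming gene, followed Col6a1 at 0.99. By the same measure over 12022 other tested protein-coding genes, those most like Col1a1 were Plxnb1, Hspg2, Gnas, Zfp532 and Dlg5 (0.99 or above), those most like Col1a2 were Adcyap1r1, Sgce, Tead1, Tgfbr3 and Sox18, and those most like Col3a1 were AI467606, Cbx1, Il27ra, Serpinf1 and Tsc22d1. Hspg2 encodes perlecan, a basement membrane proteoglycan, and had 7.39, 9.18 and 40.3 CPM in OE 1, 2 and 3 and 32.7, 44.7 and 113 CPM in NC 1, 2 and 3.

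Marker lists of other cell types differed in how many members were lower in OE libraries. Of 12 tested mesothelial markers (16 listed) 8 were lower in OE libraries, where 5.97% of all tested genes were lower. The summed level of the list was 3.34 to 10.9 CPM in OE libraries and 35.3 to 218 CPM in NC libraries. Upk3b, a defining gene of the mesothelial lining, had 0, 0 and 0.0590 CPM in OE 1, 2 and 3, against 7.08, 56.9 and 66.3 CPM in NC 1, 2 and 3 (edgeR adjusted p = 0.0020, and 0.061 without OE 3). Upk1b had 0 counts in each OE library and 26, 176 and 328 counts in NC 1, 2 and 3. Gpm6a, Lrrn4 and Pkhd1l1, lower as well, had 2, 5 and 2 counts over all OE libraries. Genes with so few counts there entered the test through the NC libraries alone and could only come out lower or not pass. Msln, the gene of mesothelin, had 5 and 18 counts in OE and NC libraries and was not tested. The count of lower markers was 5 without OE 2 or NC 2. NC 1 was the lowest control in the summed mesothelial level, as in Col1a1, Col1a2, Col4a5 and Col6a1. It was the lowest control in the smooth muscle and fibroblast sums too. In the endothelial sum and in Col24a1 the lowest control was NC 2.

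Of 6 tested smooth muscle and pericyte markers (10 listed) 5 were lower, where 5.97% of all tested genes were. The sums of the list were 5.16 to 8.26 CPM in OE libraries and 67.0 to 214 CPM in NC libraries. Myl9, Cnn1 and Tagln had 6, 3 and 5 counts over all OE libraries, so they too entered the test through the NC libraries alone. Acta2, the smooth muscle actin, had 4.79, 3.97 and 1.36 CPM in OE 1, 2 and 3, against 24.1, 109 and 101 CPM in NC 1, 2 and 3. Des had 2.43 ± 1.77 CPM in OE libraries and 62.8 ± 24.3 CPM in NC libraries (edgeR adjusted p = 0.0017). Myl9 had 0.126 ± 0.0739 and 12.0 ± 6.84 CPM (adjusted p = 5.0e-04), and Cnn1 0.0567 ± 0.0981 and 2.69 ± 1.23 CPM (adjusted p = 0.0066). Tagln was at 0.108 ± 0.103 CPM in OE libraries and 0.859 ± 0.172 CPM in NC libraries, a call lost when any library was left out (edgeR adjusted p = 0.052 to 0.16), and Myh11 had 0 and 5 counts. Of 11 tested fibroblast markers (15 listed) 4 were lower, again beside 5.97% of all tested genes. The sums of this list were 399 to 457 CPM in OE libraries and 414 to 716 CPM in NC libraries. The count of lower fibroblast markers was 1 without OE 2 and 2 without NC 2 or NC 3.

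Pdgfra, a receptor that marks fibroblasts, had 3.35, 8.89 and 26.7 CPM in OE 1, 2 and 3, against 79.0, 154 and 249 CPM in NC 1, 2 and 3 (adjusted p = 0.015, and 0.063 without OE 2). Dcn, a collagen-binding proteoglycan of the same cells, had 112, 180 and 182 CPM in OE 1, 2 and 3 and 64.8, 245 and 184 CPM in NC 1, 2 and 3 (adjusted p = 0.94), and Pdgfrb did not pass either (adjusted p = 0.63). Gsn, Medag and Mfap5, chosen after their values were seen, had log2 changes of 0.06, 0.16 and 1.27 and did not pass either. Besides Pdgfra, the lower fibroblast markers were Lum, Postn and Loxl1, the last described below. Lum and Postn had log2 changes of -3.68 and -3.43 (edgeR adjusted p = 0.020 and 0.026). Lum lost its call without OE 1, OE 2, NC 2 or NC 3 (adjusted p = 0.051 to 0.10). Postn lost its call without OE 2, NC 2 or NC 3 (adjusted p = 0.055 to 0.13). Of the 5 tested endothelial markers (10 listed) 0 passed in edgeR and 1 had an unadjusted p under 0.05, while DESeq2 called 0 and limma-voom called 1 higher and 1 lower. In edgeR 6.90% of all tested genes were higher and 5.97% lower. Kdr had 9.36 ± 1.77 CPM in OE libraries and 10.7 ± 5.82 CPM in NC libraries and Pecam1 1.35 ± 0.610 and 1.5 ± 0.538 CPM, while Tie1, Emcn and Cldn5 had 0 counts in all 6 and Cdh5 had 24 and 4 counts in OE and NC libraries. The part of any of these cell types in the collagen differences was not tested.

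**Figure D5:**
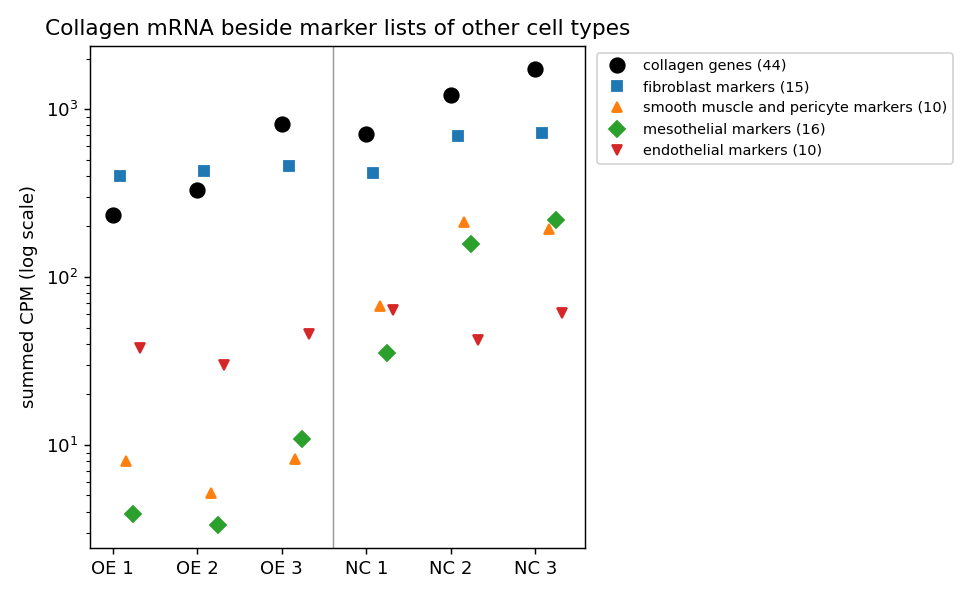
Summed CPM of the 44 collagen genes and of 4 marker lists in each library (vertical axis, log scale), OE libraries left of the line and NC libraries right of it. Mesothelial sums are 3.34 to 10.9 CPM in OE libraries and 35.3 to 218 CPM in NC libraries, while the collagen sum of OE 3, at 815 CPM, lies above that of NC 1, at 710.3 CPM.

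Genes of collagen assembly and modification moved in both directions. Of 27 tested genes (34 listed) 3 were higher, 4 were lower and 20 did not pass, with a median log2 change of -0.34. Of all tested genes 6.90% were higher and 5.97% lower. P4ha1 and P4ha2 encode catalytic subunits of the prolyl hydroxylase that stabilises the collagen helix, and both were higher. P4ha3, the gene of another catalytic subunit, had a log2 change of -0.91 and did not pass (edgeR adjusted p = 0.43). P4ha1 had 390.1 ± 87.5 CPM in OE libraries and 163 ± 30.2 CPM in NC libraries (SD, n = 3 each; edgeR adjusted p = 0.012, and 0.065 without OE 2 or NC 3) and P4ha2 had 49.6 ± 15.5 and 16.7 ± 3.75 CPM (adjusted p = 0.0080). Lox, the lysyl oxidase that cross-links collagen, had 82.9, 130.4 and 336 CPM in OE 1, 2 and 3, against 24.7, 47.6 and 45.6 CPM in NC 1, 2 and 3 (adjusted p = 0.022, and 0.067 without NC 2).

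The lower genes of this list were Pcolce, which enhances the removal of the procollagen end, Loxl1, a relative of Lox that also stands in the fibroblast list, P3h4, part of an enzyme complex that modifies collagen in the endoplasmic reticulum, and Adamts14, a procollagen protease. Pcolce had 1.64, 0.737 and 2.71 CPM in OE 1, 2 and 3, against 11.8, 27.0 and 30.2 CPM in NC 1, 2 and 3 (adjusted p = 0.0021), and Loxl1 had 4.11 ± 1.21 CPM in OE libraries and 23.7 ± 8.96 CPM in NC libraries (adjusted p = 0.0024). P3h4 lost its call without OE 1, OE 2 or NC 2 (adjusted p = 0.061, 0.077 and 0.065) and Adamts14 without OE 1, OE 2, NC 2 or NC 3 (adjusted p = 0.12 to 0.17). Lower genes of the list numbered 2 without OE 1, OE 2 or NC 2, where 3.45%, 1.80% and 2.01% of all genes were called lower, and 10 of 29 tested without OE 3, where 12.8% were. Without OE 3, 5 of the 29 were higher, beside 11.8% of all genes.

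Of 12 tested collagen-cleaving proteases (16 listed) 3 were higher in OE libraries and 9 did not pass, where 6.90% of all tested genes were higher. Without OE 3, 5 of 13 were higher, where 11.8% of all genes were. Mmp9, a gelatinase, had 125, 112 and 141 CPM in OE 1, 2 and 3, against 17.3, 20 and 17.0 CPM in NC 1, 2 and 3 (adjusted p = 1.4e-04). Mmp2, the other gelatinase, had 62.5, 70.7 and 126 CPM in OE 1, 2 and 3, against 6.09, 7.45 and 4.85 CPM in NC 1, 2 and 3 (adjusted p = 2.3e-04), and the collagenase gene Mmp8 had 262, 379 and 146 CPM in OE 1, 2 and 3, against 11.4, 10.8 and 2.24 CPM in NC 1, 2 and 3 (adjusted p = 0.0022). All OE libraries, OE 3 included, lay above all controls in these genes.

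Among 10 tested collagen receptors (13 listed) 1 was higher, 3 were lower and 6 did not pass, where 6.90% of all tested genes were higher and 5.97% lower. Itga1, the chain of an integrin that binds type IV and type I collagen, had 24.5 ± 5.98 CPM in OE libraries and 6.08 ± 1.80 CPM in NC libraries (adjusted p = 0.0032). Mrc1, the macrophage mannose receptor, which also takes up collagen, had 6.98 ± 4.92 and 62.5 ± 24.4 CPM (adjusted p = 0.0064), and its relative Mrc2 had 1.15 ± 0.954 and 8.01 ± 3.19 CPM (adjusted p = 0.012, 0.061 without OE 2 and 0.051 without NC 2). The receptor kinase gene Ddr1 had 5.03 ± 3.51 and 30.0 ± 16.7 CPM (adjusted p = 0.017, 0.089 without OE 1 and 0.065 without OE 2). Lower receptors numbered 1 without OE 2, and 2 were higher when any library other than OE 2 was left out. In the latter fits 11 receptors were tested, not 10, so the receptors compared were not the same.

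Of 12 other tested basement membrane genes (17 listed) 4 were lower and 8 did not pass, where 5.97% of all tested genes were lower. The lower genes were Lama5 and Lamb2, which encode laminin chains, Nid2 and Fbln1, whose products bind laminins and other matrix proteins. Lama5 had 0.753, 0.680 and 2.30 CPM in OE 1, 2 and 3, against 3.87, 11.8 and 30.9 CPM in NC 1, 2 and 3 (adjusted p = 0.018, 0.11 without OE 1 and 0.081 without OE 2), and NC 1 was the lowest control, as in Col4a5. Fbln1 lost its call without NC 2 or NC 3 (adjusted p = 0.051 and 0.052), Lamb2 without OE 1, OE 2, NC 2 or NC 3 (adjusted p = 0.058 to 0.090) and Nid2 without any library but NC 1 (0.050 to 0.081). The count of lower genes was 1 of 12 without OE 1, OE 2, NC 2 or NC 3, where 1.80% to 3.45% of all genes were called lower, and 7 of 12 without OE 3, where 12.8% were.

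The calls were also compared over fits that left libraries out or changed a setting. Col5a3, Col6a1, Col6a2, Col6a3 and Col24a1 were called in each of the 17 fits made, Col4a5 in 15, Col8a2 in 14, Col4a6 in 13, Col1a2 in 7 and Col1a1 in 6. These fits share libraries and are not independent. With OE 3 alone against the controls, the spread being taken from the controls, Col5a3 was higher and Col6a1, Col6a2, Col6a3 and Col24a1 were lower, where 1.78% of all genes were called higher and 0.593% lower. Without both OE 3 and NC 1, 18 collagen genes were lower, where 14.8% of all genes were called lower, and 1 was higher.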

How the data were processed

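RNA-seq of 6 libraries was analysed from raw counts per gene. The deposited counts were made by the authors with featureCounts 1.5.0-p3 on the mm10 genome, per the submitters' processing notes, which also name DESeq2 1.20.0. The library kit was a stranded mRNA kit, per the labels' protocols, while the sources used here name no aligner, annotation release or strand option. Of 54532 gene identifiers 54495 were matched to GENCODE M21 for names, coordinates and lengths. Groups follow the labels.

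After filterByExpr by group and TMM scaling, the robust quasi-likelihood test of edgeR 4.0.16 (R 4.3.3) was run. The filter kept genes with enough counts in either group alone, so a gene almost absent from the other group could be called in a single direction only. Adjusted p-values (Benjamini-Hochberg) run over all 13454 tested genes. CPM use TMM-scaled library sizes, and TPM, computed here from summed exon length, serve only to compare genes. Libraries of a group differed far beyond sampling noise (chi-square per degree of freedom at least 40.9), so none was counted as a duplicate. Named genes are all tested and most untested collagen genes. In each other list they are up to 4 higher and 4 lower genes of lowest p with the defining markers. Lyz2, Gsn, Medag, Mfap5, P4ha3, Tie1, Emcn and Cldn5 were named in addition, outside this rule. The members and lists were chosen with earlier results of these data known. Alternatives included DESeq2 1.42.0, limma 3.58.1 (voom with quality weights), other scalings and filters, a replicate block and each library left out.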

Additional observations from a re-analysis of the deposited data

How the results depend on the processing

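The call of Col5a3 as higher held in every alternative, as did those of Col6a1, Col6a2, Col6a3 and Col24a1 as lower. With RLE, upper-quartile or total-count scaling the same 7 collagen genes were lower. Leaving out 1 library at a time gave 4 to 13 lower collagen genes of 25 to 26 tested. Among all genes, 13925 to 14014 of them tested, it gave 454 to 1657 higher and 250 to 1800 lower genes. It gave 2 to 5 higher and 2 to 10 lower assembly enzymes, 1 to 2 higher and 1 to 4 lower receptors, 3 to 5 higher proteases, 0 to 1 higher and 1 to 7 lower basement membrane genes, 5 to 11 lower mesothelial, 1 to 4 lower fibroblast, 0 to 1 higher and 0 to 1 lower endothelial, and 1 to 4 higher and 0 to 1 lower macrophage markers. No filter on low counts gave 17 lower collagen genes of 40 tested, among them Col6a5 with 0 counts in OE libraries. It gave 1457 higher and 1460 lower genes of 23737 in all. It also gave 10 lower enzymes of 33, 2 higher receptors of 13 and 5 higher proteases of 15. There were 1 higher and 8 lower basement membrane genes of 17, and 1 lower gene each among endothelial and macrophage markers. Limma-voom gave 14 lower collagen genes, 2453 and 2667 genes in all (higher, then lower, here and below), 7 and 10 enzymes, 6 lower receptors, 6 and 1 proteases, 1 and 8 basement membrane genes, 1 and 1 endothelial and 5 and 1 macrophage markers. DESeq2 gave 10 lower collagen genes, 1207 lower genes in all, 5 higher proteases and 1 higher basement membrane gene. Total-count scaling moved the median of all genes to -0.20 and gave 1 and 1 macrophage markers. An adjusted p of 0.01 gave 4 lower collagen genes, 421 and 250 genes in all, 1 and 2 enzymes, 1 lower receptor, 0 lower basement membrane genes, 5 lower mesothelial, 1 lower fibroblast and 1 higher macrophage marker.

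The labels do not say whether replicate numbers pair the libraries. Same-numbered deviations from the group mean correlated at 0.0941, 0.00531 and 0.327. Differently numbered libraries were not compared in this way, so these values do not settle the pairing. The replicate block gave 11 lower collagen genes (Col1a1 0.0043, Col1a2 0.0046, Col5a2 0.044 and Col8a1 0.020 as adjusted p), 7 lower enzymes, 1 higher and 7 lower basement membrane genes and 1 lower endothelial marker. Among all genes the block gave more lower genes than the fit without it (803) and fewer than DESeq2 (1207). Higher genes were also more than in the fit without the block (928) and fewer than in DESeq2 (1363). Without OE 3 and NC 1 there were 18 lower collagen genes, 1922 and 2022 genes in all, 14 lower enzymes, 2 higher receptors, 5 and 1 proteases, 9 lower basement membrane genes, 13 lower mesothelial, 1 and 1 endothelial and 5 and 1 macrophage markers. OE 3 alone against the controls, chosen after seeing the data, gave 4 lower collagen genes, 261 and 87 genes in all, 1 and 0 enzymes, 0 and 0 receptors, 1 and 0 basement membrane genes, 0 lower mesothelial, 1 lower fibroblast, 2 lower smooth muscle and 1 higher macrophage marker; the lone library is assumed to vary like the controls. The cause of these changes was not tested.

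Log2 changes that turned sign were those of genes that did not pass on all 6 libraries. Over the fits that left out 1 library, or OE 3 with NC 1, they ran from -1.50 to 0.02 for Col12a1, -0.42 to 0.63 for Col20a1, -0.29 to 0.71 for Col27a1, -1.09 to 0.18 for Col5a1, -0.07 to 0.18 for Cd68, -0.55 to 0.35 for Dcn, -0.46 to 0.49 for Kdr, -0.52 to 0.43 for Pecam1 and -0.10 to 1.59 for Rfx1. With OE 3 alone they were Col12a1 0.42, Col20a1 -0.13, Col5a1 0.63, Col5a2 0.15, Cd68 -0.24, Dcn 0.15, Lyz2 0.09 and Rfx1 -0.25. Limma-voom gave Col20a1 -0.50, Dcn 0.09 and Kdr 0.15, the replicate block Dcn 0.10, total-count scaling Col27a1 -0.03 and Cd68 -0.15, and upper-quartile scaling Cd68 -0.01. Depth limits the genes with few counts: Col4a6 and Col6a3 had 0 counts in OE 1 and Col8a2 in all OE libraries.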
